A study of Mus musculus with 11 samples.

Results

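The 9 miRNAs described here are made by routes that skip a step of the usual miRNA pathway, and they were taken by name from the 1907 mature mouse miRNA names counted in each library. They are mmu-miR-702-3p, mmu-miR-877-5p, mmu-miR-877-3p, mmu-miR-1224-5p and mmu-miR-1981-5p, which belong to mirtrons, mmu-miR-320-3p and mmu-miR-484, whose precursors are capped or independent of Drosha, mmu-miR-1839-5p, which comes from a snoRNA-like RNA, and mmu-miR-451a, which is cleaved by Ago2. Small RNA was sequenced from 11 male Balb/cOlaHsd mice, aged 3 months in the labels and given a wider age range in the study's methods, 3 days after surgery. In 5 mice the middle cerebral artery was closed by heat and not reopened, a model of stroke named pMCAO (permanent middle cerebral artery occlusion). In the 6 sham mice the artery was exposed and lifted but not closed. The deposited counts of both groups carry the word vehicle in their names, which neither the labels nor the methods of the brain experiment explain. The labels give the tissue as cortex for the sham mice and as peri-ischemic cortex for the pMCAO mice, whereas the methods describe peri-ischemic tissue for both groups, and all brains were perfused before dissection. The question was which miRNAs differ between the 2 kinds of surgery, and each mouse gave 1 library.

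Most miRNAs are cut out of a long transcript by the nuclear enzyme Drosha and then trimmed by Dicer, which leaves a short duplex with a 5p and a 3p arm, one of which is usually kept by an Argonaute protein. Mirtrons are short introns that splicing itself releases, so that their ends are set by the splice sites and Drosha is not needed. Some precursors begin at the start of transcription, keep its cap and go directly to Dicer, and the precursor of miR-451a is too short for Dicer and is cut by Ago2 instead. In the body, miR-451a is best known as an abundant miRNA of red blood cells, made from the same primary transcript as miR-144.

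The mature sequences show how far the members differ from each other. The sequences of 8 members were found in RefSeq (GRCm38.p6), 5′ to 3′, and are shown with the seed, bases 2 to 8, in capitals because the seed decides which messengers a miRNA pairs with.
miR-702-3p: uGCCCACCcuuuaccccgcucc
miR-877-5p: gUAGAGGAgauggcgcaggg
miR-877-3p: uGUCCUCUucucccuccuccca
miR-1224-5p: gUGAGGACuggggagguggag
miR-1981-5p: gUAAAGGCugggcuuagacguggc
miR-484: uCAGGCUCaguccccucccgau
miR-1839-5p: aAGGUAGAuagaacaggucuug
miR-451a: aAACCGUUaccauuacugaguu
None of these 8 shared its seed with any other listed name that had a sequence, and they measured 20 to 24 bases. The mirtron members were rich in G and C, at 58.3% for miR-1981-5p to 68.2% for miR-702-3p against a median of 52.2% over the listed names. Of the other members miR-484 held 63.6%, within the range of the mirtrons, miR-1839-5p 40.9% and miR-451a 36.4%.

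The mirtron hairpins were placed against the introns of the gene annotation (GENCODE vM21, GRCm38). The miR-877 hairpin filled an 85-base intron of Abcf1 (chr17:35960730-35960814, minus strand), a gene for a ribosome-associated ATPase, from its first to its last base. The miR-1224 hairpin filled an 85-base intron of Vwa5b2 (chr16:20604452-20604536, plus strand) and the miR-1981 hairpin an 82-base intron of Marc2 (chr1:184822407-184822488, minus strand). The miR-702 hairpin was different, because it began 9 bases before a 102-base intron of the collagen-modifying gene Plod3 (chr5:136991442-136991543, plus strand), and miR-702-3p ended 2 bases before the last base of that intron.

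The arms that begin an intron carry the GU of a 5′ splice site, and an arm that reaches its end carries the AG of a 3′ splice site, as the capitals mark in these 4 arms.
miR-877-5p: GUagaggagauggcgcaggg
miR-1224-5p: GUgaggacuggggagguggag
miR-1981-5p: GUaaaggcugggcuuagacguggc
miR-1224-3p: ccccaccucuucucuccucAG
Among all 1623 listed names with a sequence, 3.70% began with GU and 15.9% ended with AG. Over the 17 of 1005 hairpins that spanned an intron to within 5 bases at each end, 76.5% of 5p arms began with GU and 66.7% of 3p arms ended with AG. These hairpins were chosen by the ends of introns and include miR-877, miR-1224 and miR-1981. The higher shares therefore follow from the choice and are not a separate result. miR-877-3p stopped 1 base short of the intron's last base, and in miR-1981 the 3p arm stopped 2 bases short.

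The other hairpins lay outside such introns. The miR-320 hairpin lay 63 bases upstream of the annotated start of Polr3d, a subunit gene of RNA polymerase III, on the opposite strand. The miR-484 hairpin (chr16:14159626-14159692, plus strand) lay within Marf1 on the opposite strand and 3649 bases upstream of the start of Nde1. It overlapped 1 annotated exon of Marf1, and the handling of strand is not stated, so fragments of Marf1 RNA could be counted on it. The miR-1839 hairpin (chr7:81529916-81529988, plus strand) shared 66 bases with a gene annotated as a scaRNA, a small guide RNA of Cajal bodies, and lay in the lincRNA gene 2900076A07Rik, so that fragments of the longer RNAs could be counted on it. The miR-451a hairpin (chr11:78073170-78073241, plus strand) followed the miR-144 hairpin (chr11:78073005-78073070, plus strand) closely on the same strand, and Mir451b, annotated on the opposite strand at the same place, had 0 counts in every library.

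The deposited values were raw counts, and totals per library were 1429037 to 2319810 in the sham group and 744877 to 1411620 in the pMCAO group, so every sham library was deeper. The 9 members made up 0.324% to 0.834% of a library's counts. Neuronal markers fixed in a list were abundant in every library, with a summed level of 275465 CPM (counts scaled to a common library size after TMM normalization) or more. Of the 4 leukocyte markers 3 rose in pMCAO (miR-223-3p and both arms of miR-142a). The remaining and most abundant one, miR-150-5p, averaged 2733 CPM in sham and 2298 CPM in pMCAO libraries. Its log2 fold change was -0.25, with an adjusted p of 0.370 in the edgeR test. The summed level of all 4 was 2420 to 3715 CPM in sham and 3146 to 6358 CPM in pMCAO libraries. Of 3 oligodendrocyte markers 1 fell (miR-338-3p), with summed levels of 4283 to 5239 CPM and 2528 to 4951 CPM. None of the 2 endothelial, 5 neuronal and 2 choroid plexus markers was called, of which miR-211-5p did not pass the filter on low counts, nor did either of the 2 liver or plasma markers. The summed level of the 5 neuronal markers was 319067 to 407143 CPM in sham and 275465 to 325005 CPM in pMCAO libraries. Their log2 fold changes were positive for 1 and negative for 4. The most abundant of them, miR-124-3p, was lower in every pMCAO library than in any sham library. Its log2 fold change was -0.32, and its adjusted p of 0.0523 in the edgeR test narrowly missed the threshold. The part of these cell types in the results below was not tested, and in bulk tissue fewer cells of a type and less RNA per cell cannot be told apart.

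Of the 9 members, miR-702-3p alone rose after pMCAO, none fell, and 8 did not pass the test at an adjusted p of 0.05 (edgeR quasi-likelihood test, Benjamini-Hochberg adjustment over 479 miRNAs). Over all 479 miRNAs 4.38% were called higher, and 7.1% were called in either direction, so that 1 call among 9 is near the background. The members' median log2 fold change was 0.17, with 6 positive and 3 negative values, beside a median of 0.0015 over all miRNAs tested, with 241 positive and 238 negative values. Without pMCAO replicate 2 the members' median was 0.055, and with total counts alone, which raised the median of all miRNAs to 0.18, it was 0.34. The groups did not overlap in CPM for 2 members, miR-702-3p and miR-320-3p, beside 7.52% of all miRNAs tested.

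**Figure D1:**
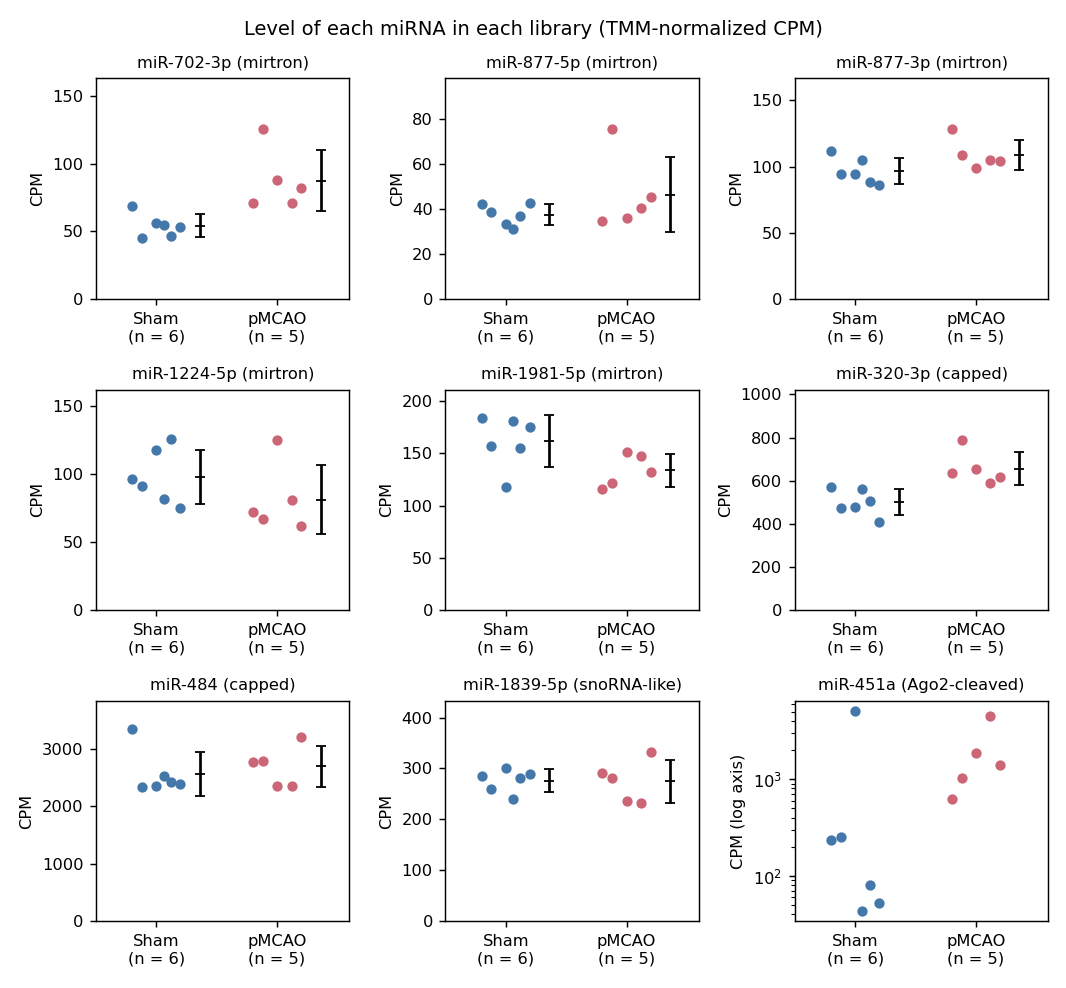
Level of each member in each library, in CPM on TMM-normalized library sizes, with 6 sham libraries in blue and 5 pMCAO libraries in red. Horizontal offsets only separate the points, black marks give the mean and SD of a group, and miR-451a is on a log axis without them. miR-702-3p and miR-320-3p have no overlap between groups, and miR-451a ranges from 42.6 to 5111 CPM within the sham group.

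miR-702-3p, the 3p arm at the acceptor end of the Plod3 intron, was higher in every pMCAO library than in any sham library. It stood at 56.4, 45.4, 46.4, 69.0, 53.1 and 54.5 CPM in sham replicates 1 to 6, a mean of 54.1 ± 8.51 CPM (SD, n = 6), and at 87.7, 125, 71.2, 71.3 and 82.1 CPM in pMCAO replicates 1 to 5, a mean of 87.5 ± 22.3 CPM (SD, n = 5). The lowest pMCAO libraries lay just above the highest sham library, replicate 4, and pMCAO replicate 2 stood far above the rest. The log2 fold change was 0.69 (SE 0.18, 95% interval 0.30 to 1.07), or 1.61-fold, with an adjusted p of 0.0386 in the edgeR test. These levels rest on 68 to 127 counts per library, and the spread of log2 values within groups, 0.27, was larger than the 0.15 that counting alone would give.

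The call for miR-702-3p was close to its threshold. Without pMCAO replicate 2, the shallowest library with 744877 counts, the log2 fold change was 0.52 and the adjusted p 0.107 in the edgeR test. The call was also lost without sham replicate 2, 3 or 6, without pMCAO replicate 1 and with no filter on low counts (adjusted p = 0.0542, edgeR). With the replicate number as a block, on 10 libraries, it was lost as well (adjusted p = 0.106, edgeR). The direction was the same without any single library, with log2 fold changes of 0.52 to 0.77. With every library thinned to the smallest total, the log2 fold change was 0.68 and the adjusted p 0.035 in the edgeR test, from 1 random draw. The other arm, miR-702-5p, which lies at the donor end of the intron, had 0 counts in 10 libraries and 2 counts in pMCAO replicate 4.

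The other mirtron members did not pass the test, and their estimates went both ways. miR-1981-5p, the most abundant mirtron product, averaged 162 ± 24.6 CPM in the sham group (SD, n = 6) and 134 ± 15.5 CPM after pMCAO (SD, n = 5). Its sham libraries ranged from 118 to 183 CPM with a median of 166 CPM, and the pMCAO libraries, at 152, 122, 147, 116 and 133 CPM, all lay below that median but overlapped with sham replicate 1. The log2 fold change was -0.27 (SE 0.14, 95% interval -0.57 to 0.02) with an adjusted p of 0.241 in the edgeR test.

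miR-1224-5p ranged from 75.0 to 126 CPM in sham libraries with a median of 93.9 CPM, and stood at 125, 67.3, 80.8, 72.0 and 62.1 CPM in pMCAO replicates 1 to 5. All pMCAO libraries other than replicate 1 were below the sham median. Its log2 fold change was -0.27 (SE 0.20, adjusted p = 0.462 in the edgeR test), and its partner miR-1224-3p, at 56.3 ± 24.7 CPM in the sham group (SD, n = 6) and 45.9 ± 15.2 CPM after pMCAO (SD, n = 5), had an adjusted p of 0.666 in the same edgeR test.

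Both arms of miR-877 are members. miR-877-3p stood at 85.9 to 112 CPM in sham libraries with a median of 94.5 CPM, and at 98.9, 109, 105, 128 and 104 CPM in pMCAO replicates 1 to 5, all above that median. The log2 fold change was 0.17 (SE 0.12, adjusted p = 0.455 in the edgeR test). miR-877-5p ranged from 31.4 to 42.9 CPM in sham libraries with a median of 37.9 CPM, and stood at 36, 75.6, 40.8, 34.9 and 45.3 CPM in pMCAO replicates 1 to 5.

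For miR-877-5p the estimate rested on 1 library. Its log2 fold change was 0.29 (SE 0.21, adjusted p = 0.452 in the edgeR test), and 0.06 (adjusted p = 0.942) without pMCAO replicate 2. This arm is 20 bases long, and the authors removed reads shorter than 20 bases, so a copy trimmed by 1 base could not be counted. The same pMCAO library was the highest of all 11 for 3 members, miR-702-3p, miR-877-5p and miR-320-3p.

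miR-320-3p, whose precursor starts with a cap, was the other member whose groups did not overlap. It stood at 481, 476, 508, 570, 407 and 561 CPM in sham replicates 1 to 6, a mean of 500.3 ± 60.5 CPM (SD, n = 6), and at 654, 787, 590, 635 and 618 CPM in pMCAO replicates 1 to 5, a mean of 657 ± 76.4 CPM (SD, n = 5). The lowest pMCAO library, replicate 3, was narrowly above the highest sham library, replicate 4. The log2 fold change was 0.39 (SE 0.12, 95% interval 0.14 to 0.64), and its adjusted p of 0.0547 in the edgeR test missed the threshold. With DESeq2 in place of edgeR the adjusted p was 0.0403, and without pMCAO replicate 2 it was 0.195 in the edgeR test.

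miR-484, a single-arm entry and the most abundant member, averaged 2562 ± 388 CPM in the sham group (SD, n = 6) and 2699 ± 356 CPM after pMCAO (SD, n = 5). The sham libraries ranged from 2330 to 3340 CPM with a median of 2404 CPM. The pMCAO libraries ranged from 2353 to 3209 CPM with a median of 2773 CPM, so the groups overlapped. The upper part of the sham range rested on replicate 4 alone, since the other sham libraries were at 2539 CPM or less. In the pMCAO group replicates 2, 4 and 5, at 2800, 2773 and 3209 CPM, were above those other sham libraries. The log2 fold change of miR-484 was 0.08 (SE 0.12, 95% interval -0.19 to 0.34, adjusted p = 0.783 in the edgeR test). Here 2103 to 5424 counts per library gave a counting error of 0.025 on the log2 scale, against a spread of 0.19 within groups.

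miR-1839-5p, the product of the scaRNA locus, had almost equal means, 276 ± 22.3 CPM in the sham group (SD, n = 6) and 275 ± 41.7 CPM after pMCAO (SD, n = 5). The sham libraries ranged from 239 to 300.1 CPM and the pMCAO libraries from 233 to 333 CPM, and pMCAO replicates 3 and 5 held the lowest and the highest level of all 11 libraries. The 95% interval of its log2 fold change ran from -0.25 to 0.24 (adjusted p = 0.992 in the edgeR test), and the sign of the estimate changed with the normalization. Its partner miR-1839-3p stood at 101 ± 19.3 CPM (SD, n = 6) and 107 ± 23.9 CPM (SD, n = 5), with an adjusted p of 0.808 in the edgeR test.

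**Figure D2:**
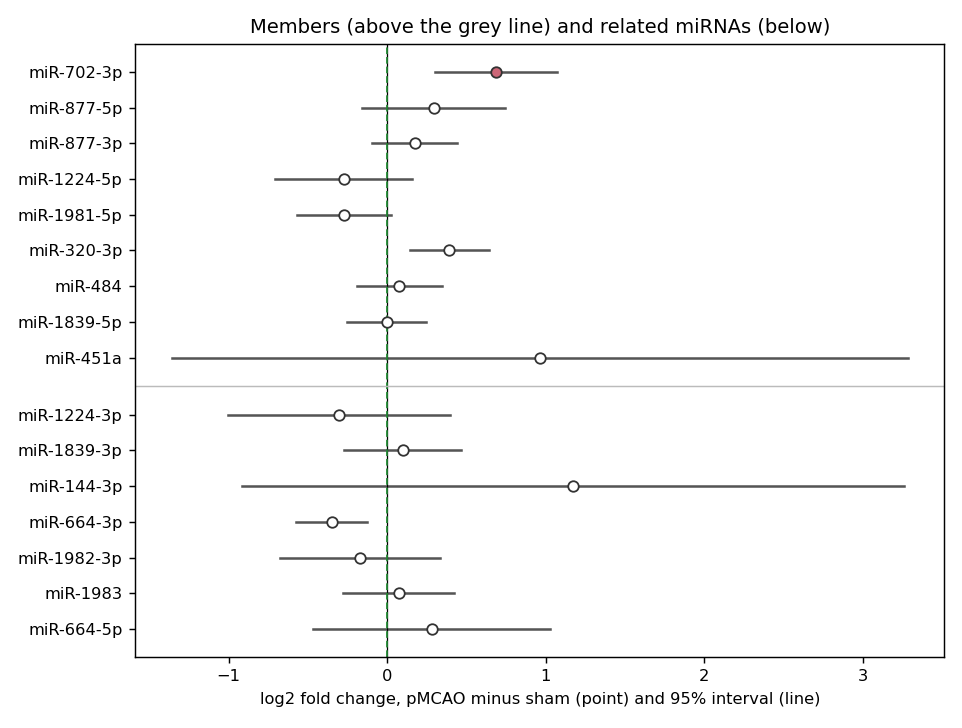
Log2 fold change of pMCAO over sham (point) with its 95% interval (line) from the edgeR fit, for the 9 members above the grey line and for related miRNAs below it. The filled point is the member with an adjusted p under 0.05, and the dashed line is the median of all 479 miRNAs tested. The interval of miR-702-3p runs from 0.30 to 1.07 and that of miR-451a from -1.36 to 3.28.

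The levels of miR-451a varied more between mice than those of any other member. Counts in sham replicates 1 to 6 were 8071, 506, 116, 381, 71 and 72, or 5111, 252, 79.2, 235, 51.7 and 42.6 CPM, and in pMCAO replicates 1 to 5 they were 1649, 866, 5578, 817 and 2184, or 1853, 1023, 4461, 619 and 1412 CPM. Sham replicate 1 held the highest level of all 11 libraries, and every pMCAO library was above each of the other 5 sham libraries. Within groups the log2 values had an SD of 2.02, against a median of 0.30 over all miRNAs tested and 0.092 from counting alone.

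With all libraries in, miR-451a had a log2 fold change of 0.96 (SE 1.08, 95% interval -1.36 to 3.28, adjusted p = 0.672 in the edgeR test). Without sham replicate 1 the log2 fold change was 3.85 with an adjusted p of 0.00227 in the edgeR test, and this was the one single-library omission under which miR-451a was called. Without pMCAO replicate 3, the library with the next highest level, the log2 fold change was 0.35 (adjusted p = 0.919 in the edgeR test). Whether miR-451a was called therefore depended on 1 sham library.

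The other product of the same primary transcript, miR-144-3p, which is made by Drosha and Dicer, varied in the same libraries. Its counts were 338, 29, 8, 19, 3 and 7 in sham replicates 1 to 6 and 88, 38, 292, 21 and 123 in pMCAO replicates 1 to 5. In the edgeR fit its log2 fold change was 1.17 (SE 0.97, adjusted p = 0.537), and 3.61 (adjusted p = 0.00356) without sham replicate 1.

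Per count of miR-144-3p, there were 23.9, 17.4, 14.5, 20.1, 23.7 and 10.3 counts of miR-451a in sham replicates 1 to 6 and 18.7, 22.8, 19.1, 38.9 and 17.8 counts in pMCAO replicates 1 to 5. Sham replicate 1, which had the most counts of both, was level with sham replicate 5, while pMCAO replicate 4 was the highest of all and sham replicate 6, with 7 counts of miR-144-3p, the lowest. The log2 ratio, with 0.5 added to each count, was 4.06 ± 0.47 in the sham group (SD, n = 6) and 4.47 ± 0.45 after pMCAO (SD, n = 5). The difference of 0.41 was within the spread between libraries (two-sided exact permutation test, p = 0.216, 0.758 after Benjamini-Hochberg adjustment over the 7 ratios and shares tested), and without sham replicate 1 it was 0.51 (exact permutation p = 0.119). miR-144-3p is 20 bases long and reads shorter than that were removed, so copies of it trimmed by 1 base are missing from the ratio.

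**Figure D3:**
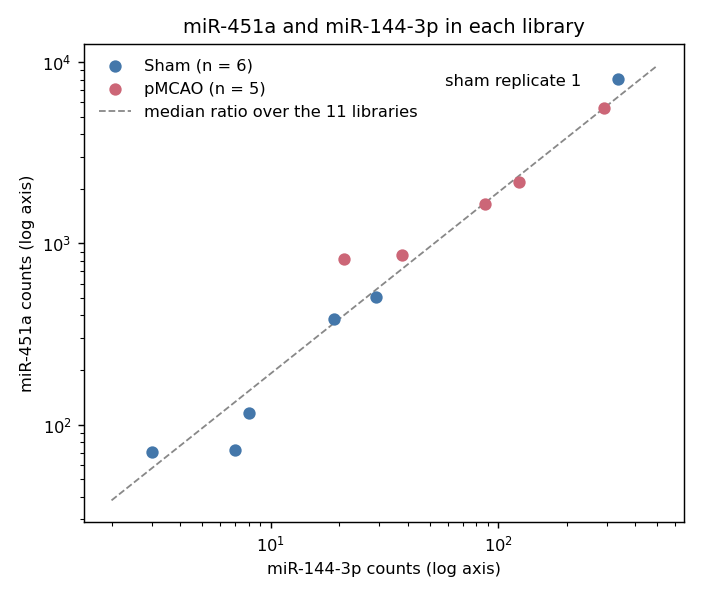
Counts of miR-451a against counts of miR-144-3p in each library, both on log axes, with 6 sham libraries in blue and 5 pMCAO libraries in red. The dashed line is the median ratio over the 11 libraries, and sham replicate 1, with 8071 counts of miR-451a and 338 of miR-144-3p, lies close to it.

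Most other markers of red blood cells had low counts. How reads with several matches were counted is not stated, so a low count of an entry need not mean little of its RNA. Of 6 listed erythrocyte markers, which leave out miR-451a itself, 2 passed the filter on low counts (miR-144-3p and miR-486a-3p) and 0 were called. Their summed level was 6.55 to 294 CPM in sham and 25.8 to 274 CPM in pMCAO libraries, and none of the 6 was at 0 in every library, but miR-486a-5p and miR-486b-5p stayed at a mean of 1.32 and 0.31 CPM in sham libraries. In sham replicate 1 miR-486a-3p was at 29.8 CPM, above the 2.91 to 19.8 CPM of the other sham libraries, and miR-144-5p was at 43.1 CPM. In pMCAO libraries miR-486a-3p was at 3.999 to 11.8 CPM, and its log2 fold change of -0.996 (SE 0.51, adjusted p = 0.248 in the edgeR test) had the opposite sign to those of miR-451a and miR-144-3p. The part of blood left in the tissue in the miR-451a result was not tested.

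The balance between the 2 arms of a hairpin does not depend on how libraries are scaled, and it was compared for the 6 member hairpins with both arms listed, together with the miR-451a ratio. Of all counts on miR-877, the 5p arm took 28.1% ± 3.46 in the sham group (SD, n = 6) and 29.5% ± 7.24 after pMCAO (SD, n = 5), a difference of 1.36 percentage points (two-sided exact permutation test, p = 0.71, adjusted p = 0.909). The share was 21.4% to 33.3% in 10 libraries and 41.0% in pMCAO replicate 2, where 156 counts gave a 95% Wilson interval of 33.6% to 48.9%, which covers counting error only. That library was the one with the high miR-877-5p level. The limit that read length sets on counting miR-877-5p applies to this share too.

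In miR-1224 the 5p share was 64.8% ± 10.03 in the sham group (SD, n = 6) and 64.1% ± 6.20 after pMCAO (SD, n = 5) (exact permutation p = 0.892), with extremes of 50.2% in sham replicate 4 (95% Wilson interval 44.7% to 55.7%) and 79.2% in sham replicate 5 (71.5% to 85.3%). These 2 libraries were named because they were the extremes, and the intervals cover counting error only. miR-1981 was almost entirely 5p, at 96.4% ± 1.95 (SD, n = 6) and 96.1% ± 1.17 (SD, n = 5), and miR-1839 was 73.4% ± 3.25 (SD, n = 6) and 72.1% ± 2.02 (SD, n = 5) 5p. Neither differed between groups beyond the spread, with exact permutation p = 0.801 for miR-1981 and exact permutation p = 0.446 for miR-1839.

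In miR-320 and miR-702 the 5p arm was nearly absent. miR-320-5p had 0 counts in all 6 sham libraries and 3, 2, 1, 0 and 8 counts in pMCAO replicates 1 to 5, so its share of miR-320 counts was 0 in sham, where 3 counts would be 0.314% to 0.537%, and 0.513%, 0.299%, 0.135%, 0 and 0.831% in pMCAO libraries. The difference of 0.36 percentage points had p = 0.0303 in the two-sided exact permutation test and an adjusted p of 0.212 over the 7 tests, and it rests on 14 counts in all. In miR-702 the 5p share was 2.08% in pMCAO replicate 4 (2 of 96 counts, 95% Wilson interval 0.573% to 7.28%) and 0 elsewhere, where 3 counts would be 2.36% to 4.41%. The smallest p that 462 arrangements of these libraries allow in this two-sided test is 0.00433.

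**Figure D4:**
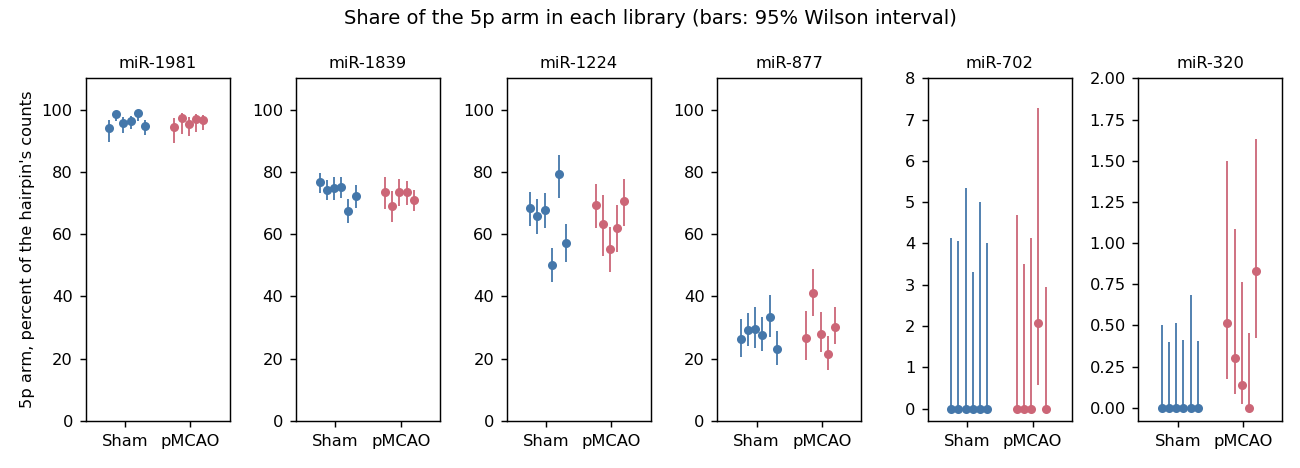
Share of the 5p arm among the counts of 6 hairpins in each library, in percent, with 95% Wilson intervals, sham libraries in blue and pMCAO libraries in red. The vertical axes of miR-702 and miR-320 are enlarged, since their 5p arms do not exceed 2.08% and 0.831%. The 5p arm ranges from 93.9% to 98.8% in miR-1981 and from 21.4% to 41.0% in miR-877.

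By mean CPM over the libraries of both groups together, the order of the members was miR-484 (2624 CPM), miR-451a (1376 CPM), miR-320-3p (571 CPM), miR-1839-5p (276 CPM), miR-1981-5p (149 CPM), miR-877-3p (102 CPM), miR-1224-5p (90.5 CPM), miR-702-3p (69.3 CPM) and miR-877-5p (41.7 CPM). Divided by mature length where it was known, the values kept this order, from 119 CPM per base for miR-484 to 2.08 CPM per base for miR-877-5p. The known lengths, 20 to 24 bases, differ little, so this division is no separate check of the order. Of the 8 pairs of neighbours 3 held their order in 11 of 11 libraries, miR-320-3p above miR-1839-5p, miR-1839-5p above miR-1981-5p and miR-702-3p above miR-877-5p. miR-1981-5p was above miR-877-3p in 10 of 11 libraries, miR-484 above miR-451a and miR-1224-5p above miR-702-3p in 9 of 11, miR-877-3p above miR-1224-5p in 8 of 11 and miR-451a above miR-320-3p in 5 of 11, so the levels of these neighbours overlapped. The order also differed between groups. miR-1224-5p was above miR-702-3p by the sham means (98.0 and 54.1 CPM) and below it by the pMCAO means (81.4 and 87.5 CPM). By medians, miR-451a was below miR-320-3p in the sham group (157 and 494 CPM) and above it after pMCAO (1412 and 635 CPM). Among the 479 miRNAs tested miR-484 ranked 56 and miR-877-5p ranked 329 by mean CPM.

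The miRNAs with the most similar pattern were sought among those tested outside the members' hairpins, by the root mean square difference of log2(CPM + 1) over the 11 libraries after removing each mean. For miR-702-3p these were miR-351-5p and miR-370-3p, at 0.22 and 0.23 against a median of 0.52 over all miRNAs tested. For miR-320-3p they were miR-99b-3p (0.14) and miR-455-3p (0.15), and for miR-484 miR-337-5p (0.096) and miR-665-3p (0.12). The smallest difference for any member was that between miR-1839-5p and miR-127-5p, at 0.091, and miR-29a-5p followed at 0.10. For miR-451a, miR-144-3p was at 0.51 and the next, the neutrophil and myeloid marker miR-223-3p, at 1.71, against a median of 2.36.

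Among the mirtrons, the nearest patterns were miR-340-3p (0.14) and let-7g-3p (0.15) for miR-1981-5p, miR-543-3p (0.15) and miR-342-5p (0.15) for miR-877-3p, miR-19b-3p (0.21) and miR-339-5p (0.22) for miR-877-5p, and miR-29b-1-5p (0.24) and miR-664-3p (0.25) for miR-1224-5p. The 2 arms of miR-877 thus had different nearest miRNAs. The libraries, their depth and their normalization are shared by all these patterns, which are given as descriptions.

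Other products of intron-spanning hairpins were also looked up. Of 32 listed names from the 17 intron-spanning hairpins, 9 passed the filter, 0 were called and 12 had no count in any library. The called member miR-702-3p is not among them, because its hairpin begins 9 bases before the intron and the limit was 5 bases. Over all 479 miRNAs tested 7.1% were called, so 0 calls among 9 is near the background. Without the members, 5 of 28 names passed the filter, whereas 479 of all 1907 names did. They were miR-1224-3p, miR-6944-3p, miR-3547-3p, miR-1982-3p and miR-7080-3p, and their median log2 fold change was -0.03. Of 6 further names known from noncanonical routes, fixed as a list, 4 passed and 0 were called, and the median log2 fold change was -0.05. The nearest to a call was miR-664-3p, which comes from a snoRNA gene, at 965 ± 67.8 CPM in the sham group (SD, n = 6) and 758 ± 83.6 CPM after pMCAO (SD, n = 5), where all 5 libraries were below the lowest sham library. Its log2 fold change was -0.35 (SE 0.10) with an adjusted p of 0.0547 in the edgeR test. The log2 fold changes of miR-1983, miR-1982-3p and miR-664-5p were 0.07, -0.17 and 0.28, with intervals that included 0.

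**Figure D5:**
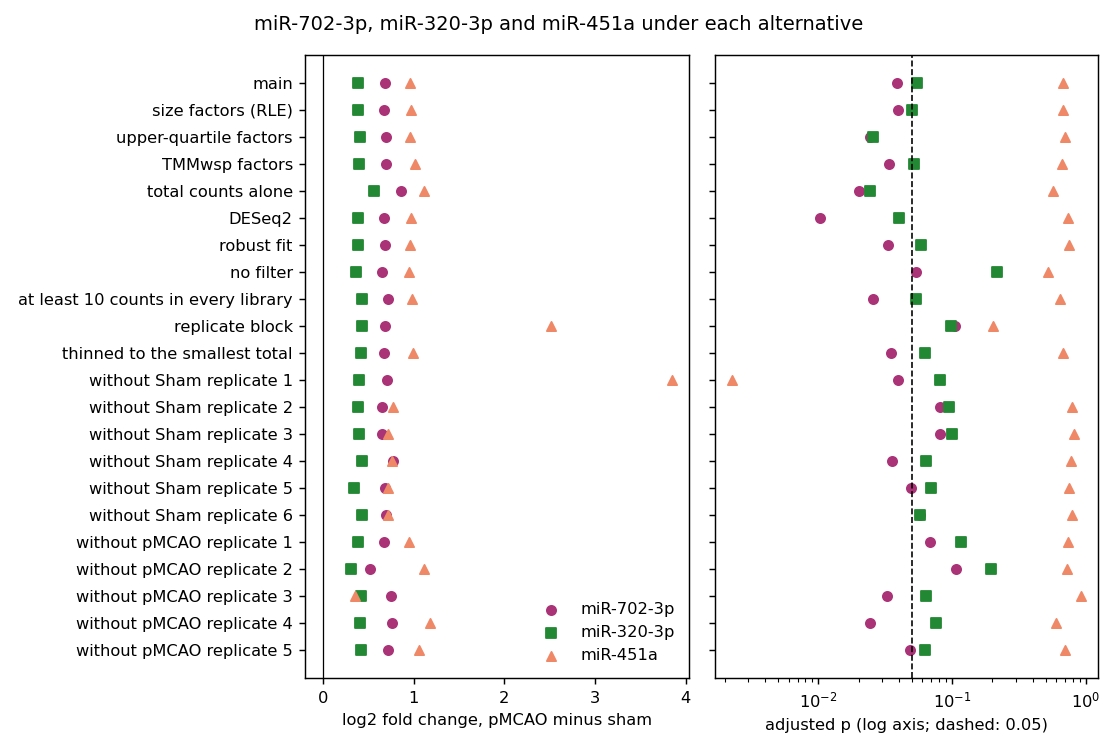
Log2 fold change (left) and adjusted p on a log axis (right) of miR-702-3p, miR-320-3p and miR-451a in the reported fit, at the top, and under each alternative setting, 1 per line. The dashed line marks an adjusted p of 0.05. miR-702-3p stays between 0.52 and 0.86 on the log2 scale and lies on both sides of the dashed line, and miR-451a moves to 3.85 without sham replicate 1.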

How the data were processed

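Small RNA libraries from the cortex of 6 sham and 5 pMCAO mice were sequenced on an Ion Torrent instrument. Per the study's methods and the submitters' processing notes, the authors checked reads with FastQC, kept a window of read lengths starting at 20 bases, mapped them to mm10 with Bowtie, counted them on miRBase entries with HTSeq and deposited raw counts for 1907 mature miRNA names per library. Settings of Bowtie and HTSeq, including the handling of strand and of reads with several matches, are not given in the sources used here, and the reads carry no molecular identifiers.

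Groups and replicate numbers came from the sample labels. The members and all lists were chosen with earlier results of these data known. edgeR 4.0.16 (R 4.3.3) was used for the counts. Its function filterByExpr (minimum count 10, minimum total 15) kept 479 miRNAs, and the quasi-likelihood test (glmQLFit, glmQLFTest) was run on TMM-scaled counts without covariates. P-values were adjusted over all 479 by Benjamini-Hochberg, and 0.05 was the threshold. CPM values are on TMM-scaled library sizes. Standard errors were obtained from each log2 fold change and its F statistic. Arm shares and the miR-451a ratio were compared by exact permutation tests over 462 arrangements (scipy 1.17.1). On simulated counts with known changes (473 miRNAs tested, 197 changed), edgeR recovered 86.7% of 2-fold and 99.1% of 4-fold changes, with 2.65% of calls false, and made 0 calls with none changed. No change smaller than 2-fold was simulated, so these rates do not apply to the smaller fold changes estimated for the members. The simulated counts were drawn independently for each miRNA, with rises and falls equally likely and no shift in scaling between groups. In the data the TMM factors were 0.865 to 1.04 in sham and 1.03 to 1.14 in pMCAO libraries, so the rate of false calls need not hold for them.

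Named miRNAs were the members, the other arms of their hairpins, both arms of miR-144, for each member the 2 miRNAs with the most similar pattern, and up to 4 of the most abundant entries of each fixed list; the expressed intron-spanning names, the markers that moved and the scarcest erythrocyte markers were named after their values were seen. Hairpin positions came from GENCODE vM21, mature sequences from RefSeq GRCm38.p6. Alternatives were 4 other normalizations, DESeq2 1.42.0, the robust fit, 2 other filters, the replicate number as a block, thinning, 2 other thresholds and leaving out each library. No 2 libraries of a group were as alike as sampling noise alone would make them.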

Additional observations from a re-analysis of the deposited data

Results flagged for a closer look

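In all, 4 values stood far from the rest of their group by Dixon's criterion, among 40 groups checked, where chance flags about 1 in 20 groups, or 2 here. The log2(CPM + 1) of miR-451a was 12.32 in sham replicate 1 and at most 7.98 in the other sham libraries. That of miR-484 was 11.71 in sham replicate 4 and at most 11.31 in the others, and that of miR-1839-3p was 7.14 in sham replicate 5, where it rests on 192 counts, and at most 6.58 in the others. The 5p share of miR-702 was 2.08% in pMCAO replicate 4, from 2 counts, and 0 in the other pMCAO libraries. Causes of these values were not tested.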

How the results depend on the processing

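The count of members called was 2 with upper-quartile factors, with total counts alone, with DESeq2 and at an adjusted p under 0.1, and 0 without a filter, with the replicate block and at an adjusted p under 0.01, and it ran from 0 to 2 when single libraries were left out. The second member was miR-320-3p, except without sham replicate 1, when it was miR-451a. miR-702-3p kept its sign in all 21 refits and its call in 14 of them, and without a filter its adjusted p was 0.0542 (edgeR). Over all miRNAs, 34 calls became 18 with at least 10 counts in every library, 19 with thinning, 19 with the replicate block, 14 at an adjusted p under 0.01, 57 at one under 0.1, and 16 to 36 when single libraries were left out. Total counts alone moved the median over all miRNAs tested, on the log2 scale, from 0.0015 to 0.18 and the calls from 21 higher and 13 lower to 43 higher and 1 lower; upper-quartile factors gave 23 and 4, and TMMwsp factors 21 and 4.

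The sign of the miR-1839-5p estimate changed with upper-quartile (0.0051), TMMwsp (0.0017) and total-count (0.17) scaling, with the filter of at least 10 counts (0.0316) and with thinning (0.0046), and its log2 fold changes without single libraries ran from -0.0737 to 0.0476. Those of miR-1839-3p ran from -0.00069 to 0.22. The difference in miR-877 5p share was -0.0507 percentage points with thinning and -0.28 between group medians, and -1.52 to 3.38 without single libraries. For miR-1981 these were 0.24, 0.59 and -0.74 to 0.22, and for miR-1224 the range was -3.60 to 2.21. For miR-702 the difference in 5p share was 0 between medians and 0 to 0.52 without single libraries. In each of these cases the cause was not tested.

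Whether replicate numbers pair the mice could not be told from these values. The correlation of deviations between same-numbered libraries was -0.077 to 0.23 and exceeded 0.1 in 3 of 5 pairs. Of the 5 pMCAO libraries, 1 correlated best with its own number. With the replicate block on 10 libraries, 0 members were called and miR-702-3p had an adjusted p of 0.106 (edgeR). Depth limits miR-702-3p, miR-877-5p and the scarce arms most, and library totals hold miRNA names alone.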
